A study of Rattus norvegicus with 10 samples.

Results

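The genes described are the superoxide dismutases Sod1, Sod2 and Sod3, catalase (Cat), the transcription factor Nrf2 (gene Nfe2l2), its inhibitor Keap1 and the Nrf2 target Nqo1. Members were the probe sets of the array whose single gene symbol in the platform annotation was one of these names, which gave 8 probe sets for 7 genes, out of 31042 probe sets and 14217 named genes in all. Keap1 had 2 probe sets and every other gene had 1. Expression was measured with Affymetrix Rat Genome 230 2.0 arrays in heart RNA of male rats of the inbred Fischer-344 strain, at 24 months (aged, 5 arrays) and at 6 months (adult, 5 arrays). All rats were on standard chow, and no genotype or drug treatment is given. The label protocols speak of the whole heart and the series text of ventricles, so the share of atrial tissue is not settled. The labels do not say that each array came from its own rat, and p-values therefore measure the spread between these samples, which may be technical.

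Superoxide dismutases turn superoxide into hydrogen peroxide. Sod1 is the copper and zinc enzyme of the cytosol, Sod2 the manganese enzyme of the mitochondrial matrix, and Sod3 a secreted copper and zinc enzyme that binds to the extracellular matrix and vessel walls. Catalase, mostly in peroxisomes, breaks hydrogen peroxide down to water and oxygen. Keap1 holds Nrf2 in the cytoplasm and hands it to a Cul3 ubiquitin ligase for degradation. When reactive compounds modify Keap1, Nrf2 accumulates, enters the nucleus, pairs with a small Maf protein and binds antioxidant response elements beside genes such as Nqo1, a quinone reductase. Much of this control acts on Nrf2 protein, which arrays of mRNA do not measure.

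The promoters of Nfe2l2, Nqo1 and Sod2 are shown because they are the gene whose mRNA changed, the classical target of its product and the mitochondrial dismutase. Sequences are from RefSeq, build GRCr8, and cover 250 bases before to 50 bases after the annotated gene start, written 5′ to 3′ along the gene. Capitals mark matches, on either strand, to the antioxidant response element core TGACNNNGC, the GC box GGGCGG, the CCAAT box CCAAT and the TATA box TATAAA.
Nfe2l2 (chr3:81028950-81029249, minus strand): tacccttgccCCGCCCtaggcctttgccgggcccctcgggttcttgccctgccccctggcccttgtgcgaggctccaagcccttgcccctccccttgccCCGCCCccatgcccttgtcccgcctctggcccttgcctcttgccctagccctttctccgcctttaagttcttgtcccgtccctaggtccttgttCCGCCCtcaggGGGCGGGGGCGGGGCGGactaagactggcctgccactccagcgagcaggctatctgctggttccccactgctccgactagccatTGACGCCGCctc
Nqo1 (chr19:52220218-52220517, minus strand): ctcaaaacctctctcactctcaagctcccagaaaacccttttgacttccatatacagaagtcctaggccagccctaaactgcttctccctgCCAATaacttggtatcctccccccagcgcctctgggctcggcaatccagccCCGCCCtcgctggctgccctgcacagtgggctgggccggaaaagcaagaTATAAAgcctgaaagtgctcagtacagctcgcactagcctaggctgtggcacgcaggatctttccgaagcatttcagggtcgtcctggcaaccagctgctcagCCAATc
Sod2 (chr1:50050119-50050418, minus strand): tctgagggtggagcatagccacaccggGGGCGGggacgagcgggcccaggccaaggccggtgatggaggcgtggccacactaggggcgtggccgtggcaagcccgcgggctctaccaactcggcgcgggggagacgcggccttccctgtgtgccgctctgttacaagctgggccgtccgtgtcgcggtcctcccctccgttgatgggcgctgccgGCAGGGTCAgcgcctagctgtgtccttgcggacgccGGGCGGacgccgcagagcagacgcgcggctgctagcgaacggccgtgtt
The Nfe2l2 window held 6 GC boxes, of which a pair shared 1 base, and 1 match to the antioxidant response element core that began 39 bases after the gene start. That core occurred in 12.2% of the 27457 promoters of the table and GC boxes in 34.9%. The Sod2 window held 1 match to the core, on the opposite strand and starting 35 bases before the gene start, with 2 GC boxes. The Nqo1 window held no match to the core, but 1 GC box, 2 CCAAT boxes and 1 TATA box. Sequence more than 250 bases before the gene start was not searched, so this does not say that Nqo1 lacks such an element. CCAAT boxes occurred in 37.7% of all promoters and TATA boxes in 14.3%. In the windows not printed, Cat held 5 CCAAT boxes, Sod1 held 1 GC box, 1 CCAAT box and 1 TATA box, and Keap1 held 1 GC box. Such letter matches describe the windows and were not tested for binding.

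Of the 7 genes, Nfe2l2 alone passed the test between ages, and it was higher in aged hearts. None fell, and the other 6 did not pass. The test was limma over all 14217 named genes with Benjamini-Hochberg adjustment, and a gene is called risen or fallen where its adjusted p was under 0.05. By this rule 11.9% of all named genes changed, 6.77% upward and 5.09% downward, so 1 call in 7 genes is near the background share. At an unadjusted p under 0.05, which 26.3% of all named genes reached, 3 of the 7 passed: Nfe2l2, Sod3 and Keap1. The aged and adult arrays did not overlap for 1 of the 7 genes, again Nfe2l2, against 9.91% of all named genes. The median difference, aged minus adult, was 0.05 on the log2 scale for the 7 genes and -0.01 for all named genes. The median size of the difference without its sign was 0.12 for the 7 and 0.08 for all.

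Values are log2 values relative to each probe set's median over the 10 arrays, as the authors' deposited table holds them. They compare arrays with each other and give no level of one gene against another. Array values below are listed for aged replicates 2, 3, 4, 5 and 6 and for adult replicates 1, 2, 3, 4 and 6, in that order. Differences are aged minus adult with their standard error (SE).

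Nfe2l2 was higher in all 5 aged arrays than in any adult array. Its log2 values were 0.13, 0.10, 0.10, 0.08 and 0.13 in aged hearts, against -0.08, -0.37, -0.27, -0.12 and -0.25 in adult hearts. The means were 0.11 ± 0.02 in aged hearts and -0.22 ± 0.12 in adult hearts (SD, n = 5 each). The aged arrays lay within 0.05 of each other, whereas the adult arrays spread over 0.29. The difference was 0.33 ± 0.06 (SE), a 1.25-fold higher level in aged hearts, with a 95% interval of 0.20 to 0.45 and an adjusted p of 0.00475 in limma over genes. Of all named genes, 741 (5.21%) had a larger rise. In all 20 alternative settings Nfe2l2 remained past the threshold, with differences of 0.29 to 0.37 and adjusted p of 0.00210 to 0.0196.

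**Figure D1:**
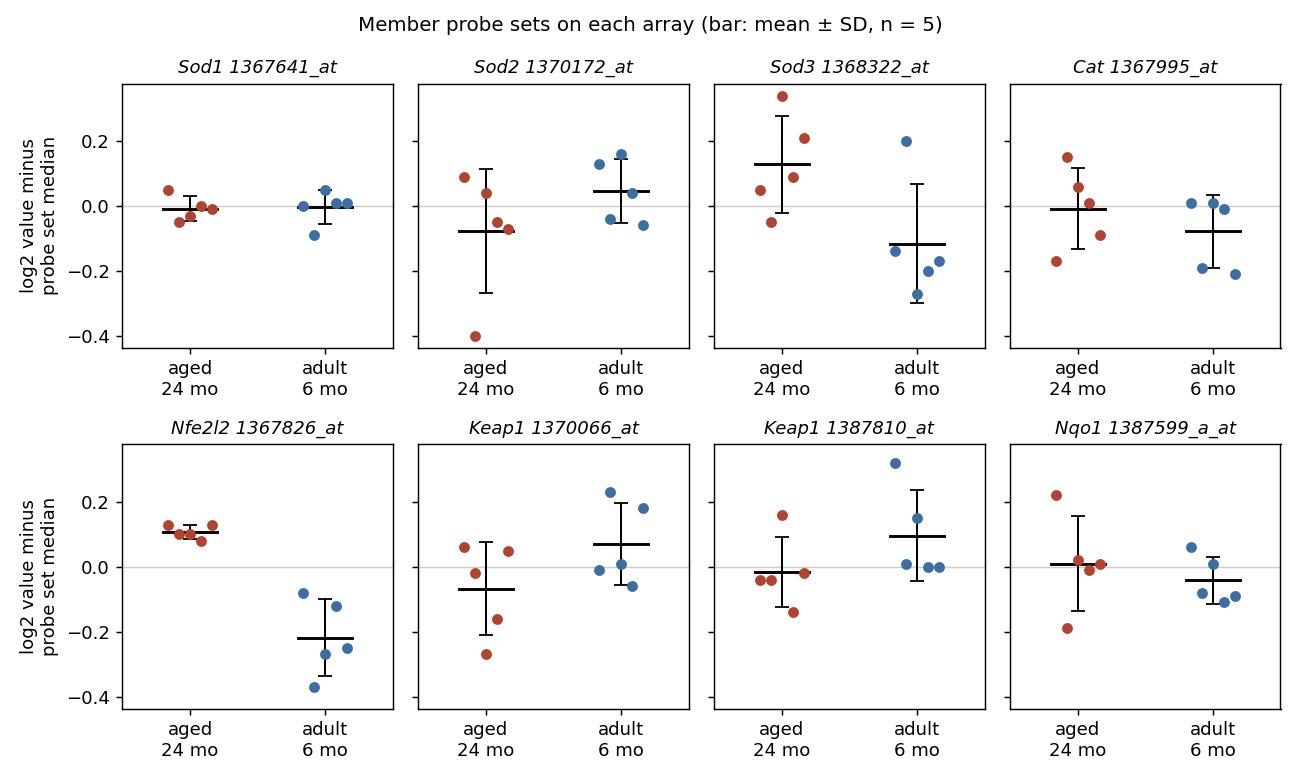
Log2 value relative to the probe set's median over the 10 arrays (vertical axis) for each gene, aged arrays left of adult arrays; each point is 1 array and the bars give the group mean and SD. Nfe2l2 has aged points from 0.08 to 0.13, all above the adult points at -0.37 to -0.08, while the other 6 genes overlap.

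The heart samples of the ages also differed in markers of other cells. The arrays were made from tissue RNA, so fewer cells of a type and less RNA per cell cannot be told apart. Of 10 macrophage markers 4 rose (40%, against 6.77% of all named genes) and none fell (against 5.09%). Their mean value ranged from -0.09 to 0.98 in aged arrays and from -0.52 to -0.10 in adult arrays. Of 10 fibroblast markers 6 rose (60%, against 6.77% of all named genes) and none fell. Their mean was 0.04 to 0.50 in aged arrays and -0.48 to -0.04 in adult arrays. Of 9 cardiomyocyte markers 2 fell (22.2%, against 5.09% of all named genes) and none rose. Their mean was -0.27 to 0.04 in aged arrays and 0.09 to 0.32 in adult arrays. All 9 were lower in aged hearts by their group means. The size rests largely on Myh6 (difference -1.24), Ryr2 (-0.55) and Ttn (-0.52), and the list median was -0.13. All 9 markers lay in the brightest signal class, against 19.9% of all named genes. Of 7 atrial markers 2 rose (28.6%, against 6.77% of all named genes) and none fell. Their mean was 0.16 to 0.51 in aged arrays and -0.59 to -0.18 in adult arrays. All 7 were higher in aged hearts by their group means. The size rests mostly on the 2 called genes, Nppa (difference 2.69) and Myl7 (1.45), and the list median was 0.16. Of 9 endothelial markers 2 rose (22.2%, against 6.77% of all named genes) and none fell. Their mean was -0.06 to 0.19 in aged arrays and -0.13 to -0.01 in adult arrays. Of 10 smooth muscle and pericyte markers 1 rose and 1 fell (10% each way, against 6.77% and 5.09%), with a mean difference of -0.02. None of 6 erythroid and 7 adipocyte markers was called (against 11.9% of all named genes), with mean differences of 0.11 and -0.09. Within the aged arrays the macrophage mean was -0.07, -0.09, 0.33, 0.60 and 0.98 in replicates 2 to 6, while Nfe2l2 stayed between 0.08 and 0.13. Within the adult arrays the order of Nfe2l2 (replicates 1, 4, 6, 3, 2 from high to low) was also the order of the macrophage and fibroblast means. The part of these markers in the Nfe2l2 difference was not tested. The table keeps no absolute level, so whether a marker was at 0 cannot be read from it.

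**Figure D2:**
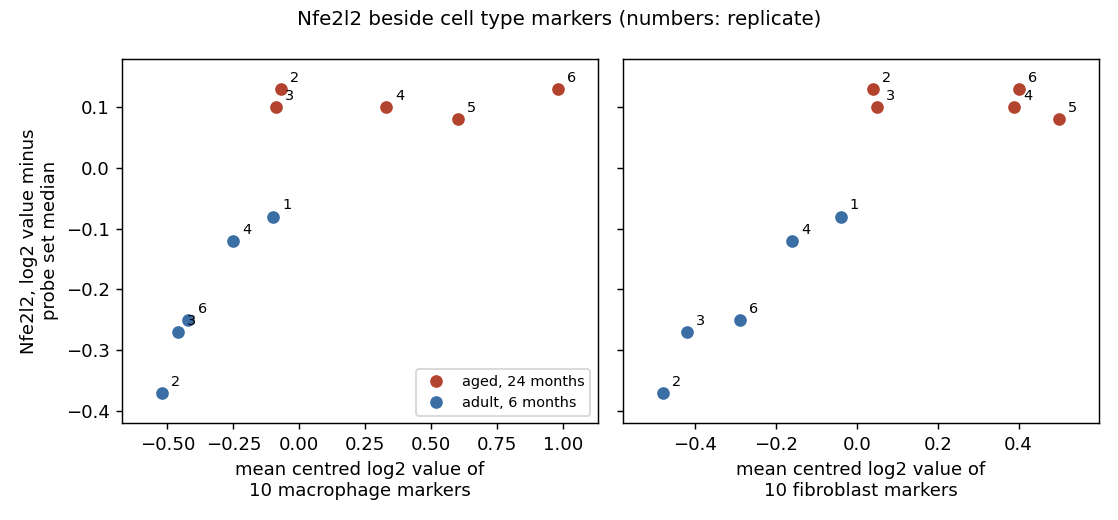
Nfe2l2 log2 value (vertical axis) against the mean log2 value of the macrophage markers (left) and fibroblast markers (right), 1 point per array with aged and adult arrays in different colours. The aged points form a nearly level row at 0.08 to 0.13, and the adult points rise with the marker means.

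Over the 10 arrays, the genes most like Nfe2l2 by root-mean-square difference of centred log2 values were Taf13 (0.042), Prpf38a (0.045) and Arhgef2 (0.054). Taf13 is a subunit of the general transcription factor TFIID and Prpf38a a spliceosome protein. In limma over genes they differed by 0.33 (adjusted p = 0.00196), 0.27 (adjusted p = 0.0136) and 0.31 (adjusted p = 0.0127), in the order named. They were picked for likeness to a gene that rose, so their own rises add nothing to it.

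Keap1 was lower in aged hearts without passing the adjusted test. The mean of its probe sets was -0.04 ± 0.07 in aged hearts and 0.08 ± 0.07 in adult hearts (SD, n = 5 each). The difference was -0.12 ± 0.05 (SE), with a 95% interval of -0.23 to -0.01 and an adjusted p of 0.142 in limma over genes. Of the aged arrays 2 lay below the lowest adult array. The probe sets did not follow each other closely over the arrays. Probe set 1370066_at had log2 values of 0.06, -0.02, -0.27, -0.16 and 0.05 in aged hearts, against -0.01, 0.23, 0.01, -0.06 and 0.18 in adult hearts. Probe set 1387810_at had -0.04, -0.04, 0.16, -0.14 and -0.02 in aged hearts, against 0.32, 0.01, 0.15, 0.00 and 0.00 in adult hearts. In aged replicate 4 the first was at its lowest value and the second at its highest aged value. Their differences were -0.14 ± 0.08 (adjusted p = 0.347) and -0.11 ± 0.07 (adjusted p = 0.449) in limma over probe sets, of which 8.03% were called; among the 8 member probe sets 1 was called, that of Nfe2l2.

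Within arrays, Nfe2l2 minus Keap1 compares the transcription factor with its inhibitor. It was 0.15 ± 0.05 in aged hearts and -0.30 ± 0.15 in adult hearts (SD, n = 5 each), with aged arrays at 0.11 to 0.23 and adult arrays at -0.48 to -0.09. The change of 0.45 had an exact two-sided permutation p of 0.00794, the smallest that 5 against 5 arrays allow, and 0.0476 after adjustment over the 6 gene pairs tested. With 4 arrays in a group the adjusted p was 0.0238 to 0.0952, and the call was lost without aged replicate 3, 4, 5 or 6. Of this 0.45, 0.33 is the Nfe2l2 difference given above, so the pair is no separate evidence for it.

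Of the 30 other regulators of Nrf2 listed, 26 were measured, and 2 rose (7.69%, against 6.77% of all named genes) and 1 fell (3.85%, against 5.09%). Their median difference was 0.00. Maff, a small Maf protein that pairs with Nrf2, had the largest rise: 0.30, 0.30, 0.17, 0.24 and 0.67 in aged hearts, against -0.31, -0.17, -0.25, -0.26 and -0.24 in adult hearts. The groups did not overlap, and the difference was 0.58 ± 0.08 (SE; adjusted p = 0.00177 in limma over genes). Its relative Mafk differed by 0.13 (adjusted p = 0.200). Gsk3b, a kinase that marks Nrf2 for degradation independently of Keap1, had -0.11, -0.18, -0.09, -0.06 and -0.05 in aged hearts, against 0.05, 0.29, 0.12, 0.27 and 0.07 in adult hearts. It fell, with a difference of -0.26 ± 0.06 (adjusted p = 0.0130), and its adjusted p was 0.0511 when aged replicates 3 and 6, the arrays with the highest lymphocyte marker mean, were both left out.

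Cand1, which exchanges the substrate receptors of cullin ligases, rose by 0.24 (adjusted p = 0.0274) with overlapping groups. That call was lost without aged replicate 5 or 6 or adult replicate 2, 3 or 6 (adjusted p of 0.0614 to 0.0704). Prkcd, a kinase that can phosphorylate Nrf2, differed by 0.23 (adjusted p = 0.0735). It was called without adult replicate 4 (0.28, adjusted p = 0.0397) and with array weights (0.23, adjusted p = 0.0498). Cul3, the scaffold of the Keap1 ligase, differed by -0.06 (adjusted p = 0.570). Sqstm1, which can sequester Keap1, differed by 0.13 (adjusted p = 0.203), but its most variable probe set alone gave 0.36 with an adjusted p of 0.0306. With the most variable probe set of each gene, 5 regulators rose. Mafk, Cul3 and Sqstm1 were chosen for naming after their values were seen.

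Nqo1 did not pass the test between ages. Its log2 values were 0.22, -0.19, 0.02, -0.01 and 0.01 in aged hearts, against 0.06, -0.08, 0.01, -0.11 and -0.09 in adult hearts. The highest and the lowest of the 10 values were both aged arrays, replicates 2 and 3. The means were 0.01 ± 0.15 in aged hearts and -0.04 ± 0.07 in adult hearts (SD, n = 5 each). The difference was 0.05 ± 0.07 (SE), with a 95% interval of -0.10 to 0.20 and an adjusted p of 0.683 in limma over genes. Nqo1 minus Nfe2l2 within arrays was -0.10 ± 0.14 in aged hearts and 0.18 ± 0.12 in adult hearts, a change of -0.27 with an exact permutation p of 0.0159, or 0.0476 adjusted over the 6 pairs. This change is mainly the Nfe2l2 difference of 0.33 given above and adds no separate evidence. This call was lost without aged replicate 3, 4, 5 or 6 or adult replicate 1, 3 or 6, with adjusted p up to 0.0952.

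**Figure D3:**
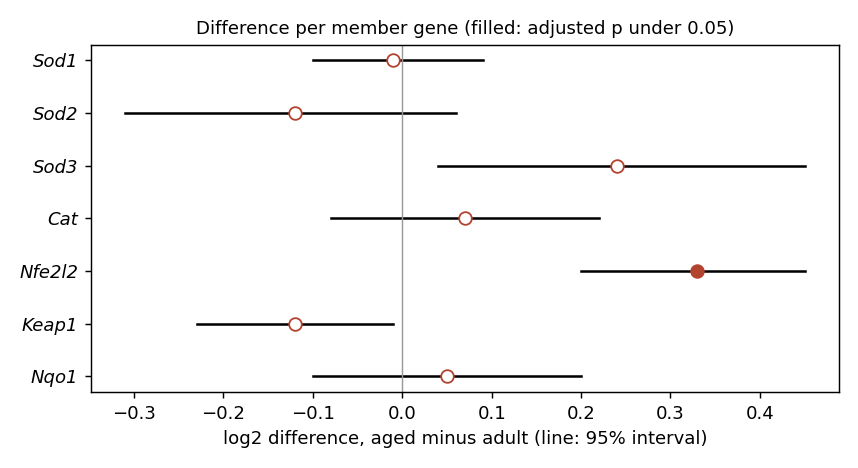
Log2 difference, aged minus adult, of each gene (horizontal axis) with its 95% interval from limma over all named genes. The interval of Nfe2l2 lies at 0.20 to 0.45; those of Sod3 (0.04 to 0.45) and Keap1 (-0.23 to -0.01) leave out 0 but did not pass after adjustment.

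Of 49 other listed targets of Nrf2, 43 were measured. In aged hearts 11 rose (25.6%, against 6.77% of all named genes) and 3 fell (6.98%, against 5.09%), with 29 means higher and 14 lower. The median difference was 0.11, against -0.01 over all named genes. When 1 array was left out, 8 to 13 targets rose. Gsta1, a glutathione transferase, had 0.71, 1.25, 0.50, 1.01 and 0.40 in aged hearts, against -0.40, -0.58, -0.47, -0.80 and -0.57 in adult hearts. The groups were far apart, and the difference of 1.34 ± 0.14 (SE) is a 2.53-fold higher level in aged hearts (adjusted p = 8.58e-04 in limma over genes). Aldh1a1, a retinal dehydrogenase, had 0.27, 0.09, 0.34, 0.44 and 0.50 in aged hearts, against -0.18, -0.64, -0.57, -0.09 and -0.27 in adult hearts, and rose by 0.68 ± 0.11 (adjusted p = 0.00330). Ephx1, the microsomal epoxide hydrolase, had 0.06 to 0.23 in aged hearts and -0.17 to -0.06 in adult hearts, and rose by 0.26 ± 0.05 (adjusted p = 0.00579). All 3 kept separate groups of arrays.

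The other targets past the threshold were chosen for naming after their values were seen. Mt2A, a metallothionein that binds zinc and copper, rose by 0.86 (adjusted p = 0.00874), or 0.53 without aged replicates 3 and 6 (adjusted p = 0.00557). Its relative Mt1, also a listed target and likewise named after its values were seen, differed by 0.00 (adjusted p = 0.988). Ugdh, which makes UDP-glucuronate for conjugation, rose by 0.64 (adjusted p = 0.00592). Akr1b8, an aldo-keto reductase, rose by 0.40 (adjusted p = 0.0106), and Idh1, a cytosolic source of NADPH, by 0.22 (adjusted p = 0.0108), or 0.35 with its most variable probe set alone. The pseudokinase Trib3 rose by 0.22 (adjusted p = 0.0141). Its call was lost over the 8 arrays of shared replicate numbers, without a replicate block (0.0613) and with it (0.0857). Hmox1, heme oxygenase 1, had -0.14, 1.00, 0.44, 0.49 and 1.13 in aged hearts, against 0.01, -0.63, -0.01, -0.45 and -0.23 in adult hearts. Aged replicate 2 lay within the adult range and replicates 3 and 6 lay highest. The Hmox1 difference of 0.85 ± 0.21 had an adjusted p of 0.0231, and the call was lost without aged replicate 6 (0.0505), adult replicate 2 (0.0617) or adult replicate 4 (0.0528). Without aged replicates 3 and 6 together the difference was 0.52 (adjusted p = 0.0907), and over the 8 arrays of shared replicate numbers the adjusted p was 0.0532. Beside it, the macrophage mean was also highest in aged replicate 6 (0.98), whereas in aged replicate 3 it was the lowest of the aged arrays (-0.09). The lymphocyte mean was highest in aged replicate 3 (0.64). That mean rests on a few cytotoxic cell genes, and the median difference of its list was 0.02. The erythroid marker mean was 0.79 in aged replicate 6 and 0.18 in aged replicate 3, and -0.33 to -0.13 in the other aged arrays. In adult arrays the erythroid mean was -0.28 to 0.17. Ugdh, at 0.10, 0.21, 0.34, 0.46 and 0.77 in aged hearts, was lowest in replicates 2 and 3 and highest in replicate 6, as the macrophage mean was. The part of these markers in the differences of Hmox1 and Ugdh was not tested.

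Pgd of the pentose phosphate pathway (0.18, adjusted p = 0.0296) and the reductase Ptgr1 (0.43, adjusted p = 0.0424) were called with less stability. The Pgd call was lost without any single array other than aged replicates 2 and 4 and adult replicate 6, and the Ptgr1 call without any other than aged replicates 3 and 6. The targets that fell were Akr7a2, an aldehyde reductase (-0.40 ± 0.06, adjusted p = 0.00289), Gsta4, a glutathione transferase for lipid aldehydes (-0.48 ± 0.10, adjusted p = 0.0102), and the transporter Abcc4 (-0.26, adjusted p = 0.0353). The Abcc4 call was lost without aged replicate 3, 5 or 6 or adult replicate 1, 2 or 3 (adjusted p of 0.0588 to 0.0897). The Gsta4 call was lost without aged replicates 3 and 6 together (-0.36, adjusted p = 0.0543). Gsta4 had -0.01, -0.54, -0.52, -0.28 and -0.58 in aged hearts, against 0.25, 0.09, 0.07, 0.01 and 0.03 in adult hearts, so it moved opposite to Gsta1 with no overlap either way.

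Several targets that are often read as markers of Nrf2 activity did not pass. Gclc and Gclm, the subunits of the enzyme that limits glutathione synthesis, differed by 0.04 (adjusted p = 0.558, 95% interval -0.05 to 0.14) and 0.12 (adjusted p = 0.416, -0.06 to 0.30). Txnrd1, thioredoxin reductase, differed by 0.13 (adjusted p = 0.368, -0.05 to 0.31). Srxn1, sulfiredoxin, differed by 0.15 (adjusted p = 0.187), although its most variable probe set alone gave 0.57 with an adjusted p of 0.00252. These 4 were chosen for naming after their values were seen.

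**Figure D4:**
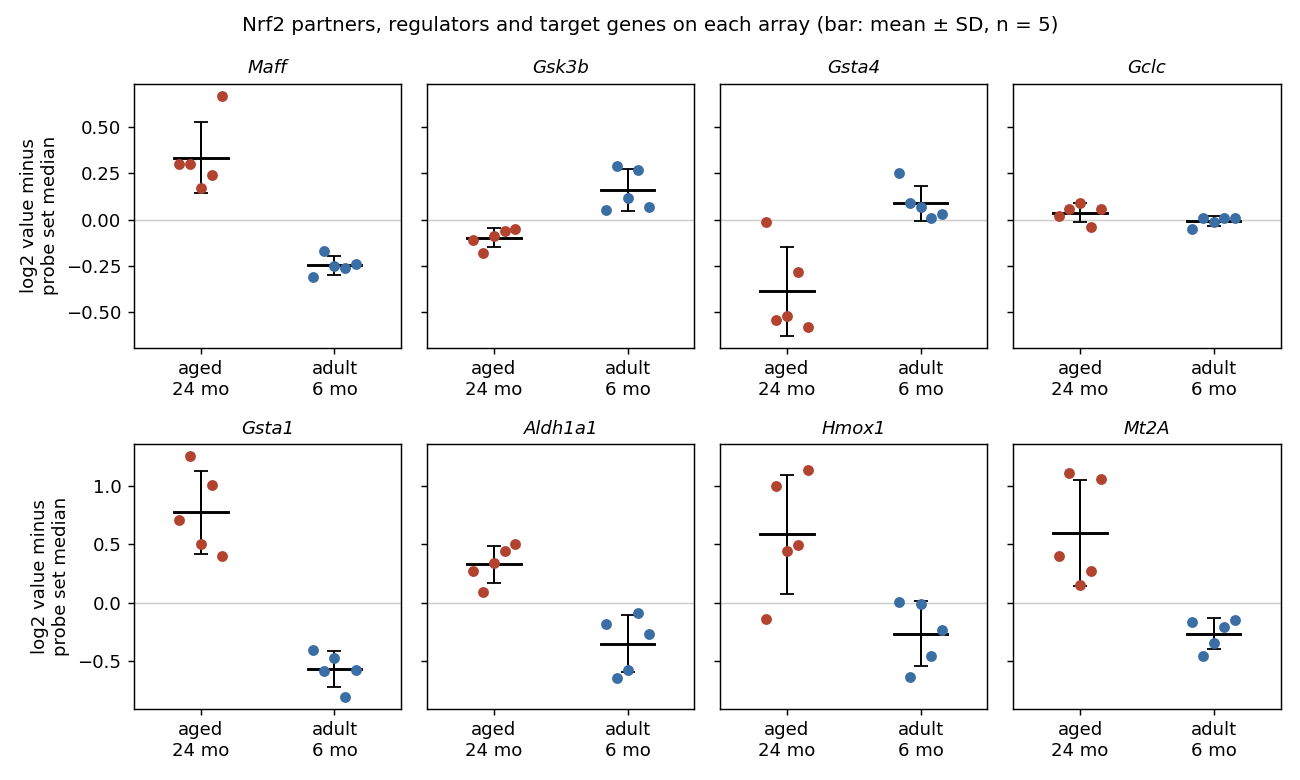
Log2 value relative to the median over the 10 arrays (vertical axis) for Maff, Gsk3b, Gsta4, Gclc, Gsta1, Aldh1a1, Hmox1 and Mt2A, 1 point per array with aged arrays left of adult arrays. Aged points lie above all adult points for Maff, Gsta1, Aldh1a1 and Mt2A and below them for Gsk3b and Gsta4, and overlap them for Gclc and Hmox1.

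Among the dismutases, Sod1 had the smallest difference between ages. Its log2 values were 0.05, -0.05, -0.03, 0.00 and -0.01 in aged hearts, against 0.00, -0.09, 0.05, 0.01 and 0.01 in adult hearts. The difference was -0.01 ± 0.04 (SE), with a 95% interval of -0.10 to 0.09 and an adjusted p of 0.949 in limma over genes. The SD of Sod1 within an age was 0.05, and 3.09% of all named genes had a smaller one. Its direction turned under 3 settings that left out arrays, at values of no more than 0.01.

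Sod2 had 0.09, -0.40, 0.04, -0.05 and -0.07 in aged hearts, against 0.13, -0.04, 0.16, 0.04 and -0.06 in adult hearts. Aged replicate 3 stood lowest, and the remaining values overlapped. The means were -0.08 ± 0.19 in aged hearts and 0.05 ± 0.10 in adult hearts (SD, n = 5 each). The difference was -0.12 ± 0.09 (SE), with a 95% interval of -0.31 to 0.06 and an adjusted p of 0.403. Without aged replicate 3 the Sod2 difference was -0.04 (adjusted p = 0.691 in limma over genes). Its SD within an age was 0.15, larger than that of 81.8% of all named genes.

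Sod3 had 0.05, -0.05, 0.34, 0.09 and 0.21 in aged hearts, against -0.14, 0.20, -0.27, -0.20 and -0.17 in adult hearts. All 5 aged arrays lay above the adult median, but adult replicate 2 lay above 3 of them. The means were 0.13 ± 0.15 in aged hearts and -0.12 ± 0.19 in adult hearts (SD, n = 5 each). The difference of 0.24 ± 0.09 (SE), 1.18-fold, had a 95% interval of 0.04 to 0.45 and did not pass (unadjusted p = 0.0224, adjusted p = 0.114 in limma over genes). Without adult replicate 2 it was 0.32 with an adjusted p of 0.0261, and with arrays weighted by their quality 0.29 with an adjusted p of 0.0400. Adult replicate 2 also had an adipocyte marker mean of 1.21, whereas the other adult arrays had -0.34 to -0.13 and the aged arrays -0.11 to 0.03. The part of these adipocyte markers in the Sod3 value was not tested.

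Set against each other within arrays, the extracellular and the mitochondrial dismutase moved apart, without passing after adjustment over the 6 pairs. Sod3 minus Sod2 was 0.20 ± 0.16 in aged hearts and -0.16 ± 0.26 in adult hearts (SD, n = 5 each), a change of 0.37 with an exact permutation p of 0.0317 and an adjusted p of 0.0635. Without adult replicate 2 the change was 0.47 (adjusted p = 0.0317), and without aged replicate 2 it was 0.43 (adjusted p = 0.0476). With any other single array left out it did not pass, with adjusted p up to 0.143. Of the 0.37, 0.24 is the Sod3 difference given above, so the pair is no separate evidence for it. Without aged replicate 3 the Sod2 difference was -0.04. Sod3 minus Sod1 was 0.14 ± 0.16 in aged hearts and -0.11 ± 0.24 in adult hearts, a change of 0.25 (exact permutation p = 0.103, adjusted p = 0.155). It passed without adult replicate 2 (0.35, adjusted p = 0.0238) and with no other array left out (adjusted p up to 0.286). Sod2 minus Sod1 changed by -0.12 (adjusted p = 0.219) and Cat minus Sod1 by 0.08 (adjusted p = 0.365) in the same exact test.

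Of 11 genes that supply copper to the dismutases and other enzymes, 10 were measured, 1 rose (10%, against 6.77% of all named genes) and none fell (against 5.09%), with a median difference of 0.04. A single call in 10 is near the background share. Mt3, a metallothionein, rose by 0.22 (adjusted p = 0.0258), and the call was lost without adult replicate 2 (0.0655) or 4 (0.0541). Ccs, the chaperone that loads copper into Sod1, differed by 0.13 (adjusted p = 0.219). Slc31a1, the main copper importer, differed by -0.06 (adjusted p = 0.428). Atox1, which carries copper to the secretory pathway, had 0.35, 0.18, -0.16, 0.23 and 0.06 in aged hearts, against -0.05, -0.10, -0.16, -0.40 and 0.05 in adult hearts. Its difference of 0.27 ± 0.10 did not pass (adjusted p = 0.102), but did without aged replicate 4 (0.34, adjusted p = 0.0332).

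Of 10 genes of manganese and zinc supply, all measured, 1 fell (10%, against 5.09% of all named genes) and none rose (against 6.77%), with a median of -0.01. This too is near the background share. Slc11a2, a divalent metal transporter, differed by -0.19 (adjusted p = 0.0284), and its call was lost without aged replicate 5 or 6 or adult replicate 1, 3 or 4 (adjusted p of 0.0551 to 0.0784). The zinc transporters Slc30a1, Slc30a5 and Slc30a6 had differences of -0.11, 0.14 and -0.18 and adjusted p of 0.205, 0.312 and 0.241, in the order named.

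Catalase did not pass the test. Its log2 values were -0.17, 0.15, 0.06, 0.01 and -0.09 in aged hearts, against 0.01, -0.19, 0.01, -0.01 and -0.21 in adult hearts, and the groups overlapped. The means were -0.01 ± 0.12 in aged hearts and -0.08 ± 0.11 in adult hearts (SD, n = 5 each). The difference was 0.07 ± 0.07 (SE), with a 95% interval of -0.08 to 0.22 and an adjusted p of 0.579 in limma over genes.

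Peroxisomes, where catalase mostly resides, were represented by 19 measured of 25 listed genes of their assembly and oxidases. None of the 19 was called in either direction by limma, against 11.9% of all named genes. At an unadjusted p under 0.05, 2 of the 19 passed, both lower in aged hearts, against 26.3% of all named genes. The median difference was -0.07, with 6 means higher and 13 lower. The smallest p values were those of Pex10, a ubiquitin ligase of the import machinery (-0.15, adjusted p = 0.102), Pex19, a chaperone for membrane proteins (-0.22, adjusted p = 0.162), Hao1, hydroxyacid oxidase (0.13, adjusted p = 0.199), and Pex5, the receptor that imports catalase (-0.09, adjusted p = 0.235). Pex10 was called without aged replicate 2 (-0.18, adjusted p = 0.0444) and with array weights (-0.16, adjusted p = 0.0491).

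On the side of supply, 19 of 23 listed sources of superoxide and hydrogen peroxide were measured. In aged hearts 5 rose (26.3%, against 6.77% of all named genes) and none fell, with a median of 0.06. Maoa, the outer mitochondrial membrane amine oxidase that releases hydrogen peroxide, had 0.66, 0.37, 1.18, 0.55 and 0.99 in aged hearts, against -0.50, -1.67, -0.49, -0.37 and -0.94 in adult hearts. No adult array reached 0, and the difference of 1.54 ± 0.23 (SE) is 2.91-fold (adjusted p = 0.00231 in limma over genes). Shc1, whose long isoform p66Shc takes part in mitochondrial peroxide production, had 0.11 to 0.41 in aged hearts and -0.34 to -0.11 in adult hearts, and rose by 0.50 ± 0.06 (adjusted p = 0.00121); the gene value does not separate isoforms. Xdh, xanthine dehydrogenase, rose by 0.54 ± 0.13 (adjusted p = 0.0185), with 0.0509 without adult replicate 3. Its aged values of 0.12, -0.01, 0.46, 0.40 and 0.81 were lowest in replicates 2 and 3 and highest in replicate 6, where the macrophage marker mean was also lowest (-0.07 and -0.09) and highest (0.98), and the part of these markers was not tested.

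The small GTPases of NADPH oxidases were called less firmly. Rac1 rose by 0.26 (adjusted p = 0.0317), and the call was lost without aged replicate 3, 5 or 6 or adult replicate 2, 3, 4 or 6 (adjusted p of 0.0512 to 0.0817); without aged replicates 3 and 6 together the difference was 0.16 (adjusted p = 0.147). Rac2, the form of blood cells, had 0.07, 1.65, 0.05, 0.50 and 1.14 in aged hearts, against -0.05, -0.36, -0.26, -0.30 and -0.17 in adult hearts. Its difference of 0.91 ± 0.26 (adjusted p = 0.0385) was lost without aged replicate 5 or 6 or any adult array (adjusted p of 0.0535 to 0.0916), and was 0.44 without aged replicates 3 and 6 together (adjusted p = 0.0323). Aged replicates 3 and 6, highest for Rac2, had lymphocyte marker means of 0.64 and 0.40, against -0.07 to 0.06 in the other aged arrays and -0.36 to -0.08 in adult arrays. That mean rests on the cytotoxic cell genes Gzma (difference 1.98), Prf1 and Nkg7 (1.11). Of the 11 measured markers 1 rose (9.09%, against 6.77% of all named genes) and none fell. In aged hearts 5 had lower means, among them the B cell marker Ms4a1 (-0.24), and the list median was 0.02. The part of these markers in the Rac2 difference was not tested. Cybb, the catalytic subunit of the phagocyte oxidase, differed by 0.39 (adjusted p = 0.0766) and did not pass. It was called in 3 of 20 alternatives, 1 of them without aged replicate 3 (0.47, adjusted p = 0.0343). The others were quantile normalization (0.32, adjusted p = 0.0463) and array weights (0.44, adjusted p = 0.0243). With its most variable probe set alone it was 0.76 (adjusted p = 0.0624), and its aged values followed the order of the macrophage mean, whose part was not tested. Cybb was chosen for naming after its values were seen. Without 1 array the count of sources that rose was as low as 2, without adult replicate 3.

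**Figure D5:**
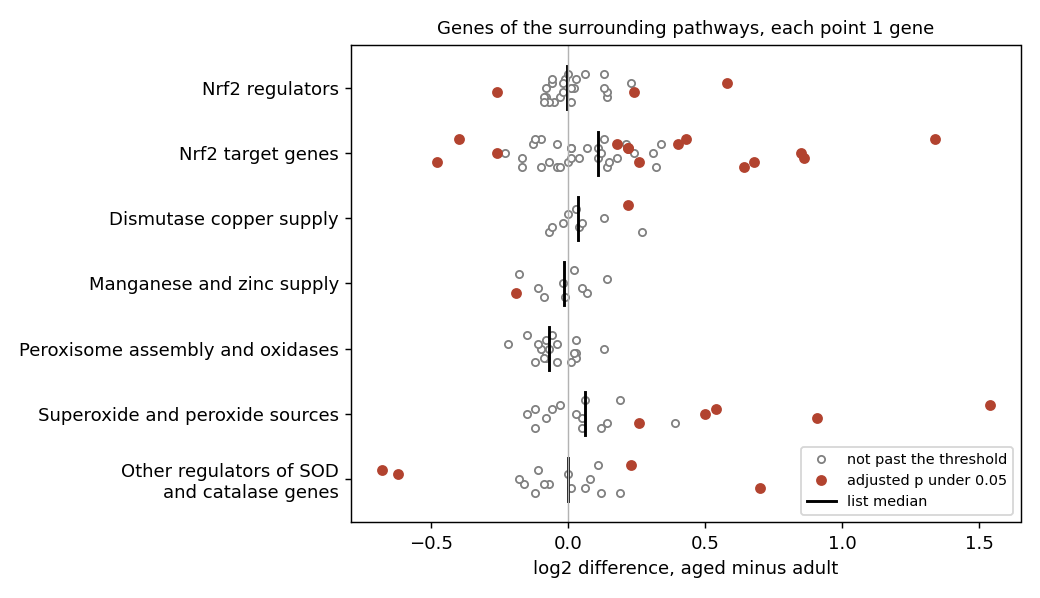
Log2 difference, aged minus adult, of every measured gene in the 7 pathway lists (horizontal axis), 1 point per gene, with genes past the adjusted threshold marked and the list median as a bar. Targets of Nrf2 reach from -0.48 to 1.34 around a median of 0.11, and no gene of the peroxisome list is marked.

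Of 20 other regulators reported to act on dismutase or catalase genes, 17 were measured, and 2 rose and 2 fell (11.8% each way, against 6.77% upward and 5.09% downward over all named genes). Those that fell were the PGC-1 coactivators. Ppargc1b had -0.04, -0.45, -0.18, -0.46 and -0.69 in aged hearts, against 0.04, 0.42, 0.40, 0.52 and 0.20 in adult hearts, with no overlap and a difference of -0.68 ± 0.12 (adjusted p = 0.00508 in limma over genes). Ppargc1a, which drives mitochondrial gene programmes together with antioxidant genes, had 0.06, -0.56, -0.17, -0.67 and -0.47 in aged hearts, against 0.24, 0.07, 0.45, 0.47 and 0.03 in adult hearts. Its difference was -0.62 ± 0.14 (adjusted p = 0.0132), and aged replicate 2 lay within the adult range. With the most variable probe set alone it was -1.16 (adjusted p = 0.00507). The call was lost without aged replicates 3 and 6 together (-0.52, adjusted p = 0.0717), with the replicate block (adjusted p = 0.0586) and over the same 8 arrays without it (0.0597).

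The calls of Egr1, an immediate early transcription factor (0.70, adjusted p = 0.0421), and Gnl3, a nucleolar protein (0.23, adjusted p = 0.0470), were each lost without any of 8 single arrays (adjusted p of 0.0558 to 0.100 for Egr1 and 0.0646 to 0.114 for Gnl3). The Egr1 call was kept without aged replicate 4 or adult replicate 1, and the Gnl3 call without aged replicate 2 or adult replicate 1. Sirt3, the mitochondrial deacetylase that acts on Sod2 protein, differed by -0.12 (adjusted p = 0.185) and was chosen for naming after its values were seen. The cardiomyocyte marker mean rests largely on Myh6, Ryr2 and Ttn as given above. Like the PGC-1 genes, it was lower in aged arrays (-0.27 to 0.04) than in adult arrays (0.09 to 0.32). Among adult arrays it was lowest in replicate 1 (0.09), where Ppargc1b was also lowest (0.04) but Ppargc1a was 0.24. The part of these markers was not tested.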

How the data were processed

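Heart RNA was measured on 10 arrays, 5 aged and 5 adult, 1 sample each. Whether each sample came from its own rat is not stated. Per the labels' protocols, RNA was amplified in a 2-cycle protocol and labelled with biotin. The authors' deposited table holds signed log values for 31042 probe sets, read here as log2. The log base is unstated; log2 is an inference from how finely the values are stepped. How the arrays were read, corrected and normalized was not given in the sources used. The median over the 10 arrays was 0 for each probe set (tolerance 1e-06), so levels are not kept. The step size gave 3 approximate signal classes. Signal over background was not analysed here; the number of arrays limits the precision.

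Probe sets with 1 gene symbol in the platform annotation (20826; 436 had several, 9780 none listed) were averaged into 14217 genes; symbols were updated through a RefSeq table of GRCr8 (20758 matched by identifier). Ages were compared with limma 3.58.1 (lmFit, eBayes) in R 4.3.3 over all genes and over all probe sets, with Benjamini-Hochberg adjustment and a threshold of 0.05. Within-array differences of 6 member pairs were tested by exact two-sided permutation over all arrangements of the arrays. Tables were made in Python 3.11.15 (numpy 2.4.6; pandas 2.3.3) and plots in matplotlib 3.10.9. On data simulated for the comparison of genes over 14217 genes, 100 genes were changed at each size. There limma recovered 29% of differences of 0.25 and 89% of differences of 0.5, with 7 false calls. The simulation changed a far smaller share of genes than the 11.9% called in the data, and the adjustment depends on that share. Its noise was normal and independent between genes, so these recoveries need not hold for the data.

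Members, gene lists and tests were chosen with earlier results of these data known, so list counts describe and are not independent evidence. Besides all members, the genes named were the 4 of each of the 7 pathway lists with the smallest p, all called genes of a list with 6 or fewer, and the 3 genes most like each called member; others are said to be chosen after their values were seen. Other sets of markers (9 lists) are given by their means, as ranges over arrays, values of single arrays or differences between ages. Single markers were chosen for naming after their values were seen. Alternatives were scaling, the choice of probe set, a filter on dim probe sets, array weights, a robust prior, a block on replicate numbers and leaving out arrays. Promoter sequences were matched by symbol for 6 of the 7 members, all but Sod3.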

Additional observations from a re-analysis of the deposited data

Results flagged for a closer look

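In 120 groups of 5 arrays, taken over the named genes at each age, the highest or lowest array was compared with the rest by Dixon's gap ratio with a critical value of 0.71. Of these, 7 exceeded it, and chance gives about 1 in 20 such groups.

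Sod3 in adult replicate 2 was 0.20, whereas the other adult arrays were at -0.27 to -0.14; without it the Sod3 difference was 0.32 instead of 0.24. Maff in aged replicate 6 was 0.67, beside 0.17 to 0.30 in the other aged arrays, all of them above every adult array. Prkcd in aged replicate 6 was 0.17, beside -0.01 to 0.04. Gclm in the same array was 0.42, beside -0.01 to 0.04, and was the single aged Gclm value above the adult range. Akr7a2 in aged replicate 2 was -0.03, beside -0.31 to -0.26 in the other aged arrays. Ugdh in adult replicate 2 was -0.56, beside -0.23 to -0.10 in the other adult arrays. Trib3 in adult replicate 4 was -0.13, beside -0.08 to -0.06. Adult replicate 2 and aged replicate 6, each with more than 1 of these values, had the highest adipocyte mean (1.21) and the highest macrophage mean (0.98) of the 10 arrays; the part of these markers in the values was not tested.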

How the results depend on the processing

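Nfe2l2 kept its direction and its call under all 20 alternatives, and Sod2, Cat, Keap1 and Nqo1 kept their direction and stayed uncalled under all 20. Sod3 was called with array weights (0.29), and when 1 array was left out it ranged from 0.19 to 0.32. Sod1 and its probe set turned sign: leaving out 1 array gave -0.03 to 0.01, and leaving out aged replicates 3 and 6 together gave 0.01; the cause was not tested. With 1 array left out, Sod3 minus Sod1 ranged from 0.19 to 0.35, Sod3 minus Sod2 from 0.30 to 0.47, Nfe2l2 minus Keap1 from 0.40 to 0.50 and Nqo1 minus Nfe2l2 from -0.32 to -0.23. The count of genes that changed was 1686, fell within 988 to 1994 with 1 array left out, and was 1012 without aged replicates 3 and 6, all with fewer arrays. Replicate numbers are not stated to pair the rats, and deviations of arrays with the same number correlated at 0.03, 0.05, 0.15 and 0.04 for numbers 2, 3, 4 and 6; 1 of 4 aged arrays correlated best with its own number. With a replicate block over these 8 arrays 1069 genes changed and Nfe2l2 differed by 0.37 (adjusted p = 0.0189 in limma), and without the block 929 changed. Among the named genes called over these 8 arrays without it, the block ended the calls of Ephx1 (adjusted p = 0.0592), Idh1 (0.0576) and Prpf38a (0.0504). Targets of Nrf2 that rose numbered 6 to 14 over all alternatives. Calls near the threshold depend on having 5 arrays in each group.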
